A study of Rattus norvegicus with 287 samples.

Results

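The growth hormone and IGF axis was followed through 7 genes in rats treated with peripheral focused ultrasound (pFUS) or a sham. The genes are Ghr (ENSRNOG00000015654), Igf1 (ENSRNOG00000004517), Igfals (ENSRNOG00000015061), Igfbp1 (ENSRNOG00000058780), Igfbp2 (ENSRNOG00000016957), Socs2 (ENSRNOG00000008965) and Cish (ENSRNOG00000029543). They were taken by exact symbol, and all 7 were found among the 32623 genes of the count table. The table covers 287 RNA-seq libraries of 8 tissues, 55 of them from liver, with 2380545 to 43088790 counts per library (median 12849617) and 6507872 to 43088790 in liver.

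The ultrasound was aimed at the porta hepatis, the entry of vessels and nerves into the liver, under isoflurane, and sham rats were handled alike without energy. One 7-week cohort held male obese ZDF and male Lean Zucker rats, each as control and as pFUS group of 5 animals in liver. A second cohort held only male obese ZDF rats, 4 per group. Its groups were a 3-day control, 3-day pFUS labelled AM only x1 or AM only x10, and 4-week pFUS labelled AM only x10, AM & PM x1 or AM & PM x10, with no 4-week control. A 7-week DIO cohort of both sexes had 4 DIO-stz control livers (2 female, 2 male), 5 DIO-stz pFUS livers (1 female, 4 male) and 2 female pFUS livers labelled DIO Diet Resistant. The labels give no ages and do not say what x1 and x10 count. The controls of the obese ZDF and DIO-stz rats are rats of the same label as those given pFUS. Lean rats were present only in the 7-week ZDF cohort, so strain and obesity cannot be told apart.

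Growth hormone from the pituitary binds its receptor on hepatocytes, encoded by Ghr, and activates the kinase JAK2 and the transcription factor STAT5B. STAT5B raises transcription of Igf1, the main circulating growth factor of the axis, of Igfals, the acid-labile subunit that holds IGF1 in a long-lived complex with IGFBP3, and of Socs2 and Cish, which encode inhibitors that damp the same receptor. Igfbp1 and Igfbp2 encode binding proteins that are regulated by feeding state: insulin represses Igfbp1, and both tend to be high in fasting.

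The promoters are shown because Cish is the textbook direct STAT5 target, Igfbp1 is a textbook target of FOXO factors under insulin, and Igf1 is the hormone gene itself. RefSeq promoter sequences were matched by symbol for 6 of the 7 genes (Ghr, Igf1, Igfals, Igfbp1, Igfbp2 and Cish). The windows are the 250 bases before the annotated start, in assembly GRCr8. They were searched on both strands for TTCNNNGAA, the core of a STAT5 site, and for GTAAACA and CAAAACA, 2 forms of a forkhead site. Capitals mark each match. The Cish window (chr8:116850719-116850968, plus strand), the Igfbp1 window (chr14:86261027-86261276, plus strand) and the Igf1 window (chr7:24172282-24172531, plus strand) read as follows, 5′ to 3′.
Cish: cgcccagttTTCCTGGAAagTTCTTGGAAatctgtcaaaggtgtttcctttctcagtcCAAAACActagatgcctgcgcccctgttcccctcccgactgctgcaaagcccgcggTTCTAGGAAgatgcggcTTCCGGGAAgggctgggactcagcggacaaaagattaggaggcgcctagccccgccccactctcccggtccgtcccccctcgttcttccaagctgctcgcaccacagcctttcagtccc
Igfbp1: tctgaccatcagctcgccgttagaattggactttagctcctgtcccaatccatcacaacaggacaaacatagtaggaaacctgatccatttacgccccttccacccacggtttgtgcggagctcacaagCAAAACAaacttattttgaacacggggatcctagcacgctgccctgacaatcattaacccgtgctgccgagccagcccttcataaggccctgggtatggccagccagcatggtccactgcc
Igf1: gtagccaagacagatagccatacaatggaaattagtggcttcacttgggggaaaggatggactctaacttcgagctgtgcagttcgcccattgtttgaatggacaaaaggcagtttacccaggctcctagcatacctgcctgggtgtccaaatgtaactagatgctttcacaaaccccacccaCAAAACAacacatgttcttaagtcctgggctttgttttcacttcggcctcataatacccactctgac

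The Cish window held 4 matches to TTCNNNGAA, at 241 to 233, 230 to 222, 136 to 128 and 119 to 111 bases before the start, and 1 CAAAACA at 192 to 186. Over 33469 rat promoters of the same length, 7.67% held at least 1 TTCNNNGAA, 0.418% at least 2 and 0.0209% at least 3, and Cish was among the 2 with 4. Igfbp1 held 1 CAAAACA at 121 to 115 bases before the start and Igf1 held 1 at 67 to 61, a motif found in 5.46% of all promoters. GTAAACA, found in 3.21% of promoters, was in none of the 6 windows, and the windows of Ghr, Igfals and Igfbp2 held none of the 3 motifs. These matches describe letters only.

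The liver label was borne out by hepatocyte transcripts. The summed level of 5 hepatocyte markers ran from 75540 to 228400 counts per 1000000 (CPM) over the 55 livers. CPM carry no correction for gene length, so levels below are compared between samples of 1 gene and not between genes. In these bulk livers fewer cells of a type and less RNA per cell cannot be told apart. The liver of lean control animal 15 stood apart: its median correlation with the other libraries of its group was 0.887, against 0.907 for DIO-stz pFUS animal 7 and 0.918 or more for all other livers measured. The DIO Diet Resistant livers were too few for this value. Results that turn on animal 15 are given with and without it. The 24 livers of the 3-day and 4-week cohort carried 16170 to 37800 CPM of 2 abundant RNAs that lack a poly(A) tail (Rpph1 and Rn7sl1), whereas every 7-week ZDF liver had at most 44.99 CPM, so levels were not compared between those cohorts.

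Within each cohort the members differed widely in how much they varied. The highest over the lowest liver was 2.56 for Ghr, 3.39 for Igf1 and 5.01 for Igfals among the 20 livers of the 7-week ZDF cohort, 1.45, 1.9 and 2.33 among the 24 of the 3-day and 4-week cohort, and 3.67, 4.54 and 3.4 among the 11 of the DIO cohort. Igfbp1 spanned 3.529 to 312.1, 3.1 to 240.0 and 2.807 to 380.1 CPM in the same 3 cohorts, and Cish 1.171 to 97.73, 0.4502 to 27.49 and 1.132 to 108.9 CPM. Both ranged over more than an order of magnitude in every cohort, as Socs2 did in the 2 ZDF cohorts (0.6852 to 29.23 and 0.808 to 12.93 CPM) and not in the DIO cohort (7.994 to 41.47 CPM). Igfbp2 ran up to 9.914 CPM in the 7-week ZDF livers, 5.222 CPM in the 3-day and 4-week livers, where at least 1 liver had no count, and 125.8 CPM in the DIO cohort.

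**Figure D1:**
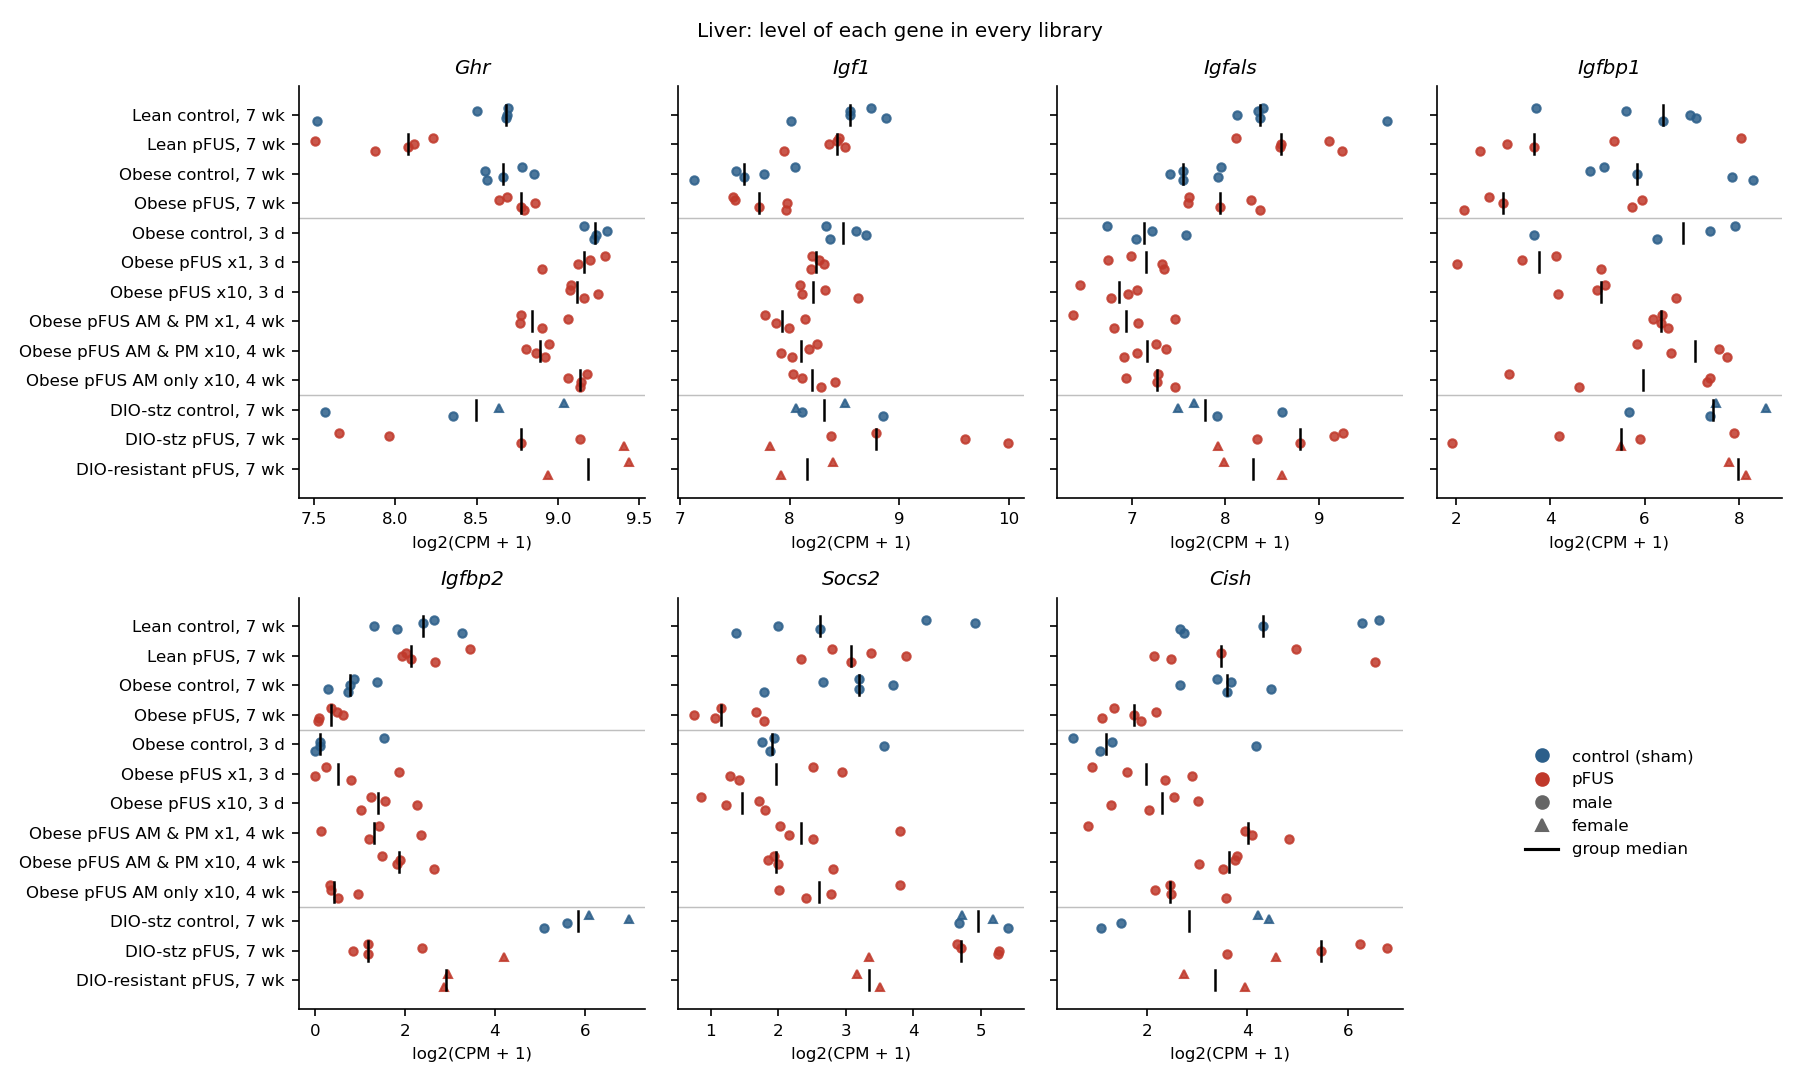
Level of each of the 7 genes in the 55 liver libraries, as log2(CPM + 1) on the horizontal axis of each panel, with 1 row per group, blue points for sham controls, red for pFUS, circles for males, triangles for females and a black bar at the group median. The median of the obese controls lies left of that of the lean controls for every gene except Socs2, and only Igf1, Igfals and Igfbp2 passed the test. Obese pFUS rats at 7 weeks lie left of all obese controls for Socs2 and Cish. Grey lines part the cohorts, between which levels are not compared.

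Obesity was first examined by setting the 5 obese ZDF control livers against the 5 Lean Zucker control livers at 7 weeks. The hormone gene Igf1, its partner Igfals and the binding protein gene Igfbp2 were lower in obese liver, while the receptor gene Ghr, Igfbp1, Socs2 and Cish did not pass the test. The test was edgeR's quasi-likelihood test with Benjamini-Hochberg adjustment over all 12585 genes tested, at an adjusted p of 0.05. Of the 7 members, 3 fell and 0 rose, where over all genes tested 14.3% were called, 6.15% as lower. An unadjusted p under 0.05 was seen for 4 members. No share of all genes at that looser threshold was taken, so this count cannot be weighed. The members' median log2 difference was -0.91, against -0.04 over all genes. The members were chosen with earlier results of these data known, so their share and median are a description only. Animals are the replicates, so these p-values weigh the spread between rats.

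Ghr, the receptor, had 413.1, 362.1, 410.4, 408.9 and 182.5 CPM in lean controls 11 to 15. In obese controls 1 to 5 it had 438.8, 374.6, 461.5, 404.0 and 377.9 CPM. The ranges overlapped, with only lean control 15 far below the rest, and the log2 difference of 0.26 ± 0.16 (SE) did not pass (edgeR adjusted p = 0.289).

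Igf1 had 426.9, 374.9, 374.7, 470.9 and 257.1 CPM in the lean controls. In the obese controls it had 264.1, 181.4, 216.0, 190.7 and 138.9 CPM. Obese control 1 lay just above lean control 15, and the other 4 obese livers lay below every lean liver. The means were 198.2 ± 46.13 (SD, n = 5) and 380.9 ± 80.04 CPM (SD, n = 5), and Igf1 fell by 0.91 ± 0.19 (SE) on the log2 scale (edgeR adjusted p = 0.00302). The call held in all 26 alternatives to the fit, with an adjusted p of at most 0.014.

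Igfals had 336.8, 325.7, 276.8, 328.4 and 847.2 CPM in the lean controls and 246.2, 186.6, 169.2, 241.1 and 185.4 CPM in the obese controls. It was the only member whose groups did not overlap, as held, with obese lower, for 5.67% of all genes tested. Igfals fell by 1.14 ± 0.33 (SE) on the log2 scale (edgeR adjusted p = 0.0250), but the highest lean value belonged to animal 15. Without that liver the log2 difference was -0.52 with an edgeR adjusted p of 0.0865. Without obese control 3 it was -1.07 with an edgeR adjusted p of 0.0621, and with only the groups compared in the fit -1.14 with 0.0890.

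Igfbp1, which insulin represses, scattered over more than an order of magnitude within both groups. It had 12.01, 47.94, 123.2, 135.6 and 82.17 CPM in the lean controls. In the obese controls it had 34.11, 27.6, 56.52, 230.7 and 312.1 CPM. Both groups held low and high animals, and the log2 difference of 0.65 ± 1.03 (SE) was smaller than its error (edgeR adjusted p = 0.707).

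Igfbp2 was scarce in both groups, at 5.283, 4.312, 1.486, 2.509 and 8.58 CPM in the lean controls. It had 0.8285, 1.609, 0.71, 0.2285 and 0.6498 CPM in the obese controls. Only obese control 2 reached the lowest lean liver, and Igfbp2 fell by 2.45 ± 0.57 (SE) on the log2 scale (edgeR adjusted p = 0.00602). This call too held in all 26 alternatives, with an adjusted p of at most 0.0303.

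The feedback genes varied most among lean rats. Socs2 had 17.23, 29.23, 2.971, 5.146 and 1.6 CPM in the lean controls and 8.147, 5.326, 11.95, 8.142 and 2.46 CPM in the obese controls. Cish had 97.73, 76.5, 18.77, 5.359 and 5.672 CPM in the lean controls and 9.528, 11.84, 5.31, 21.05 and 11.02 CPM in the obese controls. Lean controls 11 and 12 were the highest of all 10 livers for both genes, and the obese livers lay within the lean range for Socs2 and, apart from the lowest of them, for Cish. Neither difference passed, at -0.55 ± 0.54 (SE) for Socs2 (edgeR adjusted p = 0.524) and -1.67 ± 0.76 for Cish (edgeR adjusted p = 0.140), both on the log2 scale.

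**Figure D2:**
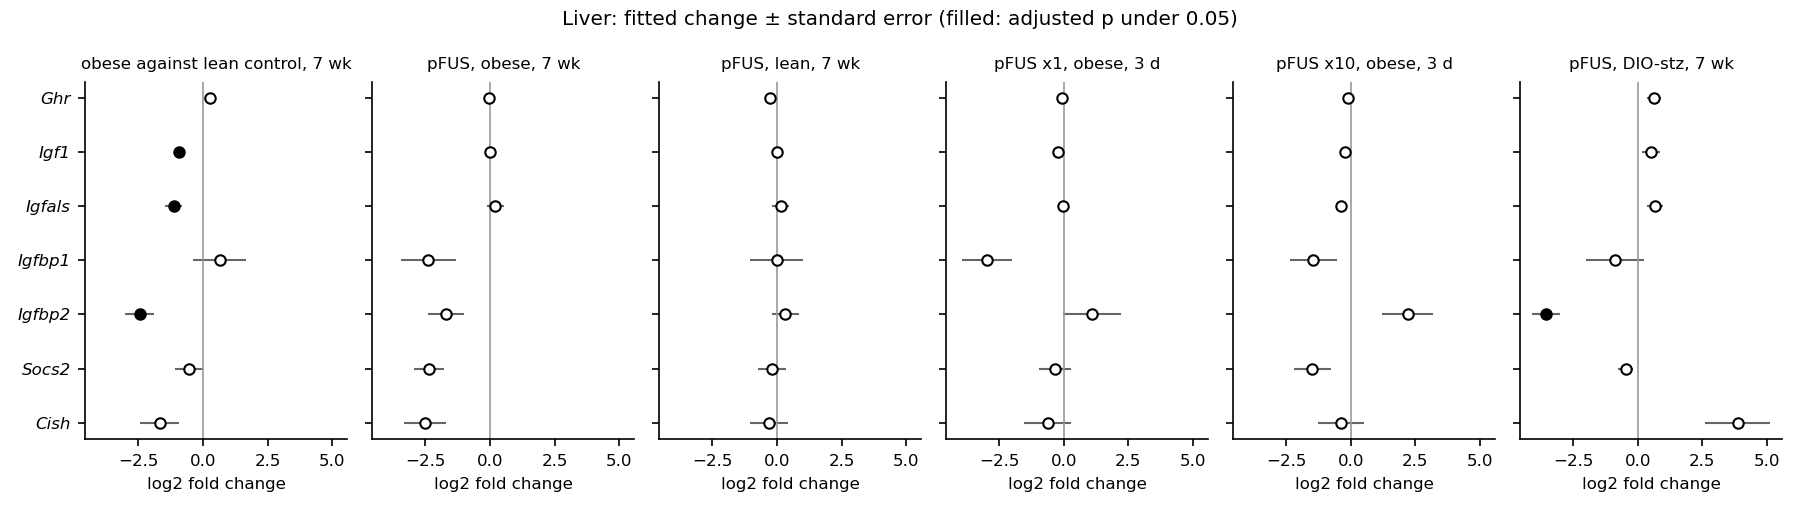
Fitted log2 fold change (horizontal axis) with its standard error (line) for each of the 7 genes in 6 liver comparisons, with filled points for an edgeR adjusted p under 0.05. Igf1, Igfals and Igfbp2 are filled and left of 0 for obese against lean control, Igfbp2 alone is filled for pFUS in DIO-stz rats, and no point is filled in the other 4 panels.

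The wider axis was read from a list of 45 genes by role, of which 41 were in the table and 26 could be tested in 7-week ZDF liver. This list too was chosen with earlier results of these data known. In obese against lean controls 6 of the 26 rose and 2 fell, and their median log2 difference was 0.04, where 14.3% of all genes were called. The 8 calls became 4 without lean control 15, 5 without obese control 1, 2 or 4, and 5 with no filter on low counts or with the compared groups alone. Stat5b, Stat3, Igfbp3 and Prlr were called in all 26 alternatives, and the other 4 were not. Among 9 genes of growth hormone receptor signalling, Stat5b and Stat3 rose and the rest did not pass. Stat5b, the main transcription factor of the pathway, had 27.5 ± 4.46 CPM (SD, n = 5) in obese and 13.5 ± 1.70 CPM (SD, n = 5) in lean controls. It ranged from 21.9 to 33.7 CPM in obese and from 11.4 to 15.7 CPM in lean controls. Its log2 difference was 1.03 ± 0.20 (SE, edgeR adjusted p = 0.00117). Stat3, which carries cytokine signals as well, had 140.0 ± 32.6 CPM (SD) in obese and 71.7 ± 7.35 CPM (SD) in lean controls, a log2 difference of 1.00 ± 0.23 (SE, edgeR adjusted p = 0.00484). The group with lower Igf1 was thus the one with higher Stat5b.

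Among the other binding proteins Igfbp3, the main carrier of IGF1 in blood, fell by 1.40 ± 0.17 (SE) on the log2 scale (edgeR adjusted p = 9.91e-06). It had 77.9 ± 7.71 CPM (SD, n = 5) in lean and 29.6 ± 5.46 CPM (SD, n = 5) in obese controls. These groups did not overlap, as held, with obese lower, for 5.67% of all genes tested. Of the genes for the 3 parts of the circulating complex, Igf1 and Igfbp3 were lower in every alternative, and Igfals was not called without lean control 15. Igfbp6 was called lower, by 2.59 ± 0.87 (SE) on the log2 scale (edgeR adjusted p = 0.0496), with lean values spread from 0.377 to 14.7 CPM, but without animal 15 its log2 difference was 0.03 (edgeR adjusted p = 0.979). Of the IGF ligand and receptor genes, Irs2, an adaptor of the insulin and IGF1 receptors, rose by 1.69 ± 0.49 (SE, edgeR adjusted p = 0.0245) and Igf2r, which clears IGF2, by 0.63 ± 0.21 (SE, edgeR adjusted p = 0.0458) on the log2 scale. The Irs2 call was lost in 6 of 26 alternatives and that of Igf2r in 16, among them leaving out animal 15 (edgeR adjusted p = 0.055 and 0.0503). Of 7 tested liver genes that follow the sex-specific pattern of growth hormone release, Prlr and Cux2, both higher in female than male rat liver, rose. The other 5 did not pass, and the median log2 difference of the 7 was -0.30. Prlr, the prolactin receptor, rose from 21.4 ± 5.59 to 66.2 ± 25.8 CPM (SD, n = 5 each), a log2 difference of 1.67 ± 0.33 (SE, edgeR adjusted p = 0.00188). Cux2, a repressor of male-type liver genes, rose from 1.45 ± 1.17 to 12.3 ± 16.2 CPM (SD), a log2 difference of 3.06 ± 0.92 (SE, edgeR adjusted p = 0.0290), which was lost in 8 of 26 alternatives, without animal 15 among them (2.90, edgeR adjusted p = 0.0683).

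**Figure D3:**
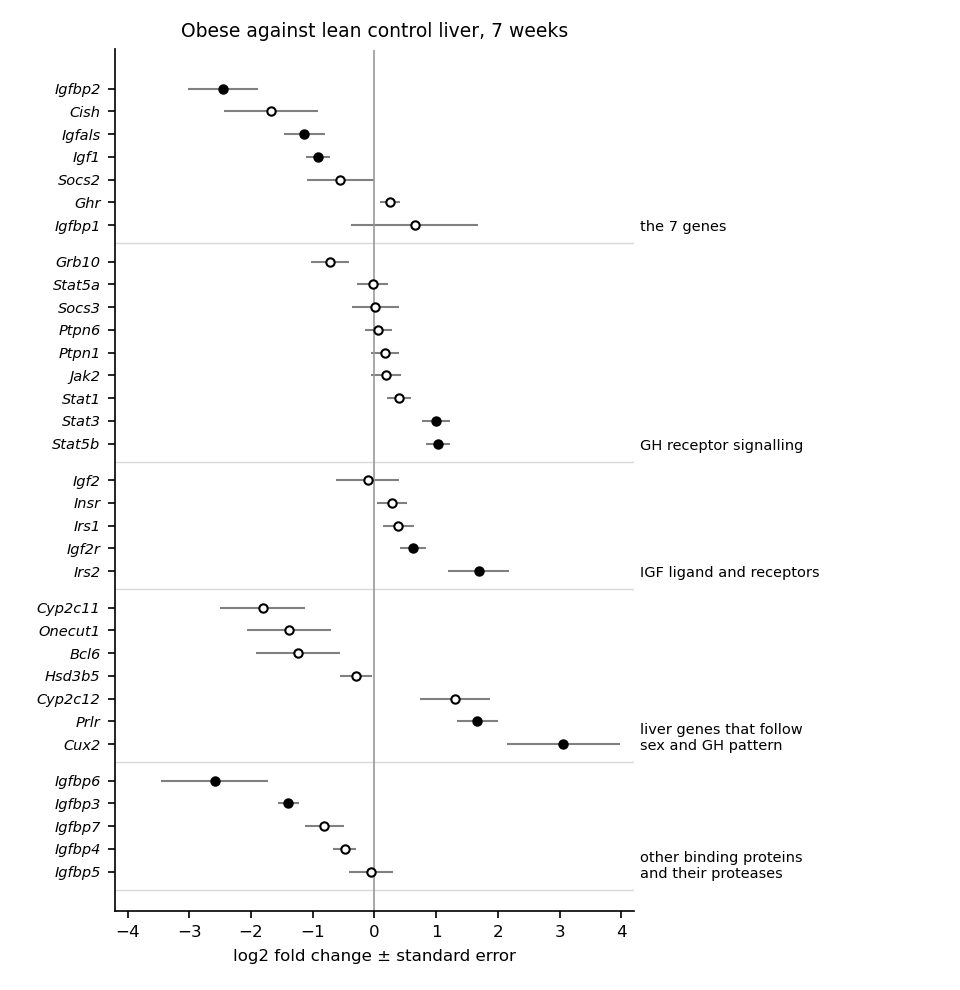
Log2 fold change with standard error (horizontal axis) of the 7 genes and the 26 tested genes of the wider axis in obese against lean control liver at 7 weeks, grouped by role, with filled points for an edgeR adjusted p under 0.05. Stat3, Stat5b, Igf2r, Irs2, Prlr and Cux2 are filled to the right of 0, and Igfbp3 and Igfbp6 to the left, the last of which is at 0.03 without lean control 15.

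Cell type markers were also summed in these livers, as levels without a test. Sums of the hepatocyte, endothelial, cholangiocyte and lymphocyte markers by group are not given here. The summed level of 5 Kupffer cell markers was 176.4 to 311.0 CPM in obese and 54.9 to 189.5 CPM in lean controls. Stellate cell markers summed to 53.31 to 83.17 CPM in obese and 91.82 to 224.8 CPM in lean controls, and 2 blood cell markers to 75.39 to 270.3 and 237.1 to 841.5 CPM. The Kupffer and blood cell ranges overlapped between the groups. The 3 adipocyte markers were at 0 in all obese controls. The part of these cells in the differences of Igf1, Igfals, Igfbp2 and Igfbp3 was not tested.

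pFUS was next set against sham in obese rats after 7 weeks. Animals 6 to 10 had pFUS, and the comparison shares its obese controls with the one above, so the values are given side by side only. The feedback genes Socs2 and Cish were lower in every obese pFUS liver than in every obese control, but no member passed the test. Of 7 members 0 were called, where 0.397% of all genes tested were called. An unadjusted p under 0.05 was seen for 4 members. No share of all genes at that looser threshold was taken, so this count cannot be weighed. The members' median log2 difference was -1.71, against -0.00 over all genes. As above, the choice of members makes this a description only.

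Socs2 had 1.214, 2.198, 0.6852, 1.087 and 2.439 CPM in obese pFUS animals 6 to 10, against 2.46 to 11.95 CPM in the obese controls. Cish had 1.541, 3.516, 2.367, 1.171 and 2.698 CPM in the same pFUS livers, against 5.31 to 21.05 CPM in the controls. Neither gene overlapped between groups, and Socs2 was separated by the thin gap between 2.439 and 2.46 CPM; of all genes tested 0.954% were lower without overlap. The means were 1.525 ± 0.7552 against 7.204 ± 3.546 CPM for Socs2 and 2.259 ± 0.9333 against 11.75 ± 5.778 CPM for Cish (SD, n = 5 each). The log2 differences were -2.36 ± 0.59 (SE, edgeR adjusted p = 0.0946) for Socs2 and -2.50 ± 0.81 (SE, edgeR adjusted p = 0.292) for Cish.

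Both calls depended on the fit. Socs2 passed with DESeq2 (log2 difference -2.33, adjusted p = 0.00583), with only the obese groups in the edgeR fit (-2.35, adjusted p = 0.0443) and without lean control 12 in the edgeR fit (-2.36, adjusted p = 0.0499). Cish passed only with the obese groups alone in the edgeR fit (-2.50, adjusted p = 0.0201). That fit leaves out the lean livers with their scattered Cish values, and why the call changed was not tested.

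Igfbp1 had 5.51, 60.81, 7.008, 52.14 and 3.529 CPM in the obese pFUS livers against 27.6 to 312.1 CPM in the controls. The 3 lowest pFUS livers were below all controls, the other 2 within them, and the log2 difference of -2.38 ± 1.07 (SE) did not pass (edgeR adjusted p = 0.57). Igfbp2 had 0.2802, 0.3996, 0.5295, 0.05577 and 0.05189 CPM against 0.2285 to 1.609 CPM, a log2 difference of -1.71 ± 0.69 (SE) that did not pass either (edgeR adjusted p = 0.465). Ghr (log2 difference -0.04 ± 0.16), Igf1 (0.00 ± 0.19) and Igfals (0.21 ± 0.33, SE each) differed by less than or about their errors, with group means of 430.5, 213.8 and 254.8 CPM under pFUS. None of these 3 was called in any alternative.

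On the wider list 1 of 26 genes passed in obese pFUS liver. Irs2, which insulin represses like Igfbp1, fell by 2.42 ± 0.50 (SE) on the log2 scale (edgeR adjusted p = 0.0322), from 14.2 to 99.0 CPM in the controls to 5.37 to 12.3 CPM under pFUS. That call was lost in 10 of 26 alternatives: in the edgeR fit of the compared groups alone, without a filter on low counts, without lean control 15 and obese pFUS animal 7 together, and without any 1 of obese controls 4 and 5 or pFUS animals 6 to 10 (edgeR adjusted p up to 0.118). The Kupffer cell markers summed to 85.47 to 204.0 CPM and the stellate markers to 37.68 to 66.25 CPM under pFUS, both toward the low side of the obese controls, and their part in these differences was not tested.

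In lean rats, sham against pFUS at 7 weeks gave no called member, where 0.389% of all genes were called. Of the 7 members 0 had an unadjusted p under 0.05. Ghr had 299.5, 180.9, 275.8, 269.3 and 233.6 CPM in lean pFUS animals 16 to 20. All 5 were below 4 of the 5 lean controls, but control 15 lay lower than all except animal 17, and the log2 difference of -0.26 ± 0.16 (SE) did not pass (edgeR adjusted p = 0.336). Without animal 15 Ghr was called lower (log2 difference -0.37, edgeR adjusted p = 0.0343), and Igfals, at 275.7, 548.7, 386.3, 383.7 and 606.7 CPM, was called higher (0.77, edgeR adjusted p = 0.00817, against 0.15 ± 0.33 with it).

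Socs2 had 5.934, 9.418, 13.83, 4.058 and 7.463 CPM and Cish 30.04, 10.14, 3.416, 4.581 and 92.0 CPM in the lean pFUS livers. All Socs2 values lay within the range of the lean controls, and 2 Cish values lay below it, with log2 differences of -0.18 ± 0.55 (SE, edgeR adjusted p = 0.864) and -0.32 ± 0.74 (SE, edgeR adjusted p = 0.824). Igfbp1 had 4.716 to 39.91 CPM in 4 of 5 lean pFUS livers and 261.2 CPM in animal 16, and its log2 difference was -0.01 ± 1.02 (SE). The difference between the pFUS effects in obese and lean liver was tested itself: 0 of 7 members passed, and 0.405% of all genes did. It was -2.17 ± 0.80 (SE, edgeR adjusted p = 0.216) for Socs2, -2.18 ± 1.09 (0.338) for Cish and -2.04 ± 0.87 (0.273) for Igfbp2. Igfbp2 passed without animal 15 (-2.58, edgeR adjusted p = 0.0300).

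**Figure D4:**
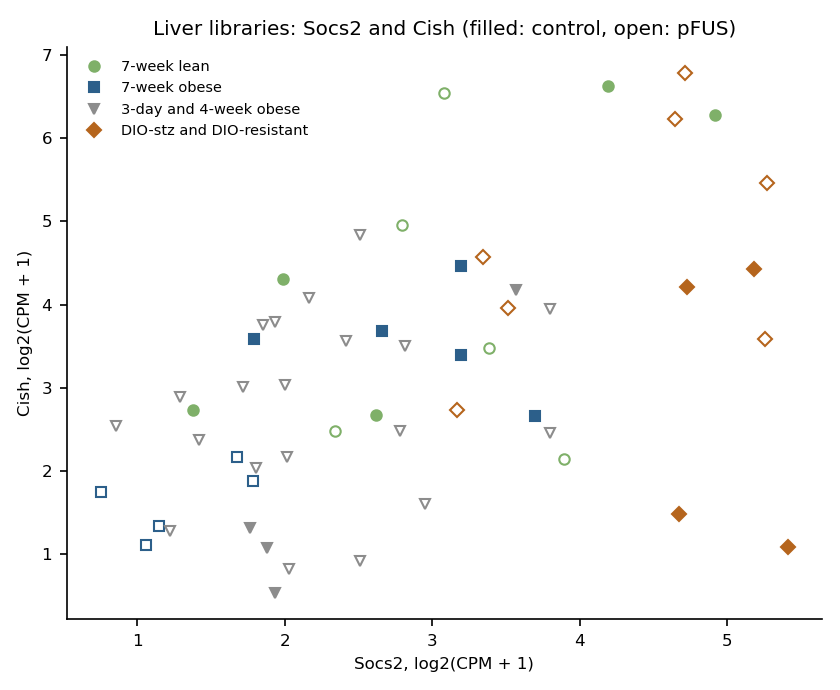
Socs2 (horizontal axis) and Cish (vertical axis) in each of the 55 liver libraries as log2(CPM + 1), with filled symbols for controls, open for pFUS, and colour and shape for the cohort and strain. The 5 open blue squares (obese pFUS, 7 weeks) lie at the lower left, below and to the left of all 5 filled squares (obese controls), while lean rats scatter over both genes.

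After 3 days in obese rats, no member passed for either pFUS group against the shared sham controls 41 to 44. With the label x1, 0 of 7 were called while 1.33% of all 12381 genes tested were, and with the label x10 0 of 7 while 2.08% were. Igfbp1 had 240.0, 165.6, 11.62 and 75.56 CPM in the controls, 16.41, 9.635, 3.1 and 32.92 CPM under x1 and 34.74, 30.96, 16.83 and 100.6 CPM under x10. Control 43, the lowest control, lay inside the x1 range and below every x10 liver, and control 44 at 75.56 CPM lay inside the x10 range. The log2 difference was -2.97 ± 0.97 (SE, edgeR adjusted p = 0.143) for x1, which passed with DESeq2 (-2.98, adjusted p = 0.0240).

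Igf1 had 320.5, 388.8, 414.3 and 329.2 CPM in the 3-day controls and 294.2, 307.7, 316.3 and 291.1 CPM under x1. The x1 livers were all just below the lowest control, as held for 3.22% of all genes, and the log2 difference of -0.25 ± 0.12 (SE) did not pass (edgeR adjusted p = 0.380). Under x10 it had 272.0, 318.7, 274.9 and 392.7 CPM, which overlapped. Cish was near or below 1.488 CPM in 3 controls and 17.04 CPM in control 43, and that animal was also the high one for Socs2, at 10.84 CPM against 2.397 to 2.813 CPM in the others. The log2 difference of Cish under x1 ran from -1.16 to 1.63 when each animal was left out in turn.

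Stat5b, the factor upstream of these genes, was called lower in both 3-day groups. It averaged 25.1 CPM under x1 against 41.9 CPM in the controls, a log2 difference of -0.72 ± 0.13 (SE, edgeR adjusted p = 0.00578), and its log2 difference under x10 was -0.51 ± 0.13 (SE, edgeR adjusted p = 0.0431). The x1 call held in all 29 alternatives, and the x10 call was lost in 18 of 29. Stat5a, its close relative, was called lower under x10, at 4.72 against 9.64 CPM, a log2 difference of -1.05 ± 0.25 (SE, edgeR adjusted p = 0.0213), which was lost without animal 37, 38, 40 or 43. Both groups share the same 4 controls. x10 set directly against x1 called 0 of 7 members, with 0.727% of all genes called.

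The 4-week groups have no sham, so only the regimens were compared with each other. AM & PM x10 against AM only x10 called 0 of 7 members and 1.88% of all genes. Igfbp2 had 1.822, 2.704, 2.555 and 5.222 CPM under AM & PM x10 and 0.2639, 0.2685, 0.9469 and 0.4253 CPM under AM only x10. Ghr had 491.1, 445.4, 464.9 and 484.0 CPM against 579.6, 533.1, 563.4 and 561.1 CPM. Neither gene overlapped between the regimens, where 3.81% of all genes were higher and 6.23% lower without overlap, but the log2 differences of 2.67 ± 0.85 (SE, edgeR adjusted p = 0.103) for Igfbp2 and -0.22 ± 0.10 (SE, edgeR adjusted p = 0.234) for Ghr did not pass. Igfbp4, a binding protein of the wider list, was called higher under AM & PM x10 at 786.3 against 595.6 CPM (log2 difference 0.43 ± 0.11, edgeR adjusted p = 0.0467), a call lost in 17 of 29 alternatives. AM & PM x10 against AM & PM x1 called 0 of 7 members, with 0.985% of all genes called.

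In the DIO-stz rats the clearest difference was in Igfbp2. The control livers had 67.63 and 125.8 CPM (females 3 and 4) and 47.45 and 33.34 CPM (males 5 and 6). The pFUS livers had 1.249, 4.188, 0.7893 and 1.263 CPM (males 7 to 10) and 17.34 CPM (female 11). Every pFUS liver was below every control, as held for 3.78% of all genes, and within each group the females were above the males. With a term for sex the log2 difference was -3.56 ± 0.53 (SE, edgeR adjusted p = 0.0101). Igfbp2 was the only called member of 7, where 1.15% of all 12870 genes tested were called, 0.793% as lower. With males alone the log2 difference was -4.38 (edgeR adjusted p = 0.0747) and with no sex term -3.57 (edgeR adjusted p = 0.113), and leaving out each animal in turn gave -4.36 to -3.14. The pFUS livers labelled DIO Diet Resistant, both female, had 6.781 and 6.318 CPM.

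Cish leaned the other way in DIO-stz males without passing edgeR's test. The male controls had 1.8 and 1.132 CPM and the female controls 17.53 and 20.49 CPM. The male pFUS livers had 74.14, 108.9, 43.02 and 11.02 CPM and the female 22.68 CPM. All pFUS males were above both control males, whereas the female was close to the control females. The share of all genes that part these few males in the same way was not taken. The log2 difference of 3.86 ± 1.26 (SE) did not pass in edgeR (adjusted p = 0.271) and passed with DESeq2 (4.25, adjusted p = 0.000543). Socs2, at 25.46, 35.33, 24.51 and 41.47 CPM in controls and 23.99, 25.19, 37.62, 37.19 and 9.165 CPM under pFUS, did not pass (log2 difference -0.48 ± 0.31, edgeR adjusted p = 0.753), so Cish and Socs2 did not vary alike here.

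The receptor and hormone genes did not pass in DIO-stz liver. Igf1 had 363.2, 264.7, 275.2 and 460.0 CPM in controls and 439.6, 330.6, 776.6, 1019.0 and 224.7 CPM under pFUS, with pFUS animals 9 and 10 above all other livers of the cohort. Its log2 difference was 0.51 ± 0.35 (SE, edgeR adjusted p = 0.799). Ghr (0.63 ± 0.28, 0.494) and Igfals (0.67 ± 0.30, 0.507) had unadjusted p-values under 0.05 only, and Igfbp1 (-0.88 ± 1.14, 0.956) scattered from 2.807 to 380.1 CPM over both groups; these are log2 differences with SE and edgeR adjusted p.

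Sex itself was tested within the DIO cohort, with treatment held in the model. Igfbp2 was the 1 member of 7 called, higher in females by a log2 difference of 2.11 ± 0.51 (SE, edgeR adjusted p = 0.0453), where 4.22% of all genes were called and 2.53% as higher in females. The DIO-stz females averaged 70.25 ± 54.28 CPM (SD, n = 3) and the males 14.71 ± 20.42 CPM (SD, n = 6). The call was lost in 11 of 16 alternatives, and without female 11 the log2 difference was 1.12 (edgeR adjusted p = 0.715). Ghr (0.87 ± 0.28, adjusted p = 0.143) and Igfals (-0.91 ± 0.33, adjusted p = 0.2) leaned to females and males without passing edgeR's test. Of 28 tested genes of the wider list, 4 were higher in females and 4 in males. The female-type steroid hydroxylase gene Cyp2c12 averaged 3055 CPM in females and 50.02 CPM in males, and the male-type Cyp2c11 0.297 and 1936 CPM, which matches the labelled sexes. Prlr averaged 785.9 CPM in females and 23.2 CPM in males, a log2 difference of 5.12 ± 0.79 (SE, edgeR adjusted p = 0.0035) whose call was lost without female 11.

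Each member had its own pattern across tissues, read as median CPM over the obese controls and described without a test. Of the 4 obese control adipose libraries 2 carried high muscle, kidney or brown fat transcripts, and the pairs were unlike (Ghr 750.8 and 620.4 against 194.6 and 222.2 CPM, Igfbp2 39.31 and 82.21 against 0.1223 and 0.3624 CPM), so the place of adipose in each order is uncertain. Adipose and pancreas libraries were labelled total RNA. Over all libraries Rpph1 and Rn7sl1 summed to medians of 41130 CPM in adipose and 90110 CPM in pancreas. The medians were 2.717 CPM in intestine, 12.73 in kidney and 15.34 in brain. For adipose and pancreas, tissue and kind of library cannot be told apart. Ghr was at 421.3 CPM in adipose and 404.0 in liver, which overlapped, then 70.1 in kidney, 60.7 in intestine, 50.2 in muscle, 27.3 in pancreas and 8.58 in brain, and it was at 0 in blood. Igf1 was at 190.7 CPM in liver and 131.4 in adipose, which overlapped, and at 17.3 in pancreas, 2.53 in intestine, 2.32 in muscle, 1.47 in kidney, 1.19 in brain and 0 in blood. Igfals was highest in liver (186.6 CPM), with kidney next at 28.2 CPM and no overlap, and at most 0.376 CPM elsewhere. It was thus the member nearest to a liver gene.

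In the obese controls the binding protein genes split between kidney, liver and brain. Igfbp1 was at 166.8 CPM in kidney and 56.5 in liver, which overlapped, and at most 0.280 CPM elsewhere. Igfbp2 was highest in brain (55.3 CPM), then kidney (29.6) and adipose (19.8), and was at 0.807 in intestine, 0.71 in liver and 0.517 in muscle. The feedback genes were widely expressed: Socs2 ran from 12.6 CPM in intestine, 8.14 in liver and 7.73 in adipose down to 0.303 in blood, and Cish from 33.6 in adipose and 26.6 in kidney to 11.0 in liver and 0.683 in blood. With normalisation factors over all libraries at once the highest tissue became liver for Ghr and Socs2 and pancreas for Cish. The order differed in the DIO-stz controls. There Igfbp1 had a median of 172.8 CPM in liver and 30.47 in kidney, which overlapped. Igfbp2 had 57.54 CPM in liver and 44.73 in brain, and Socs2 was highest in liver at 30.4 CPM. Igfals kept its order, at 220.2 CPM in liver and 23.73 in kidney.

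**Figure D5:**
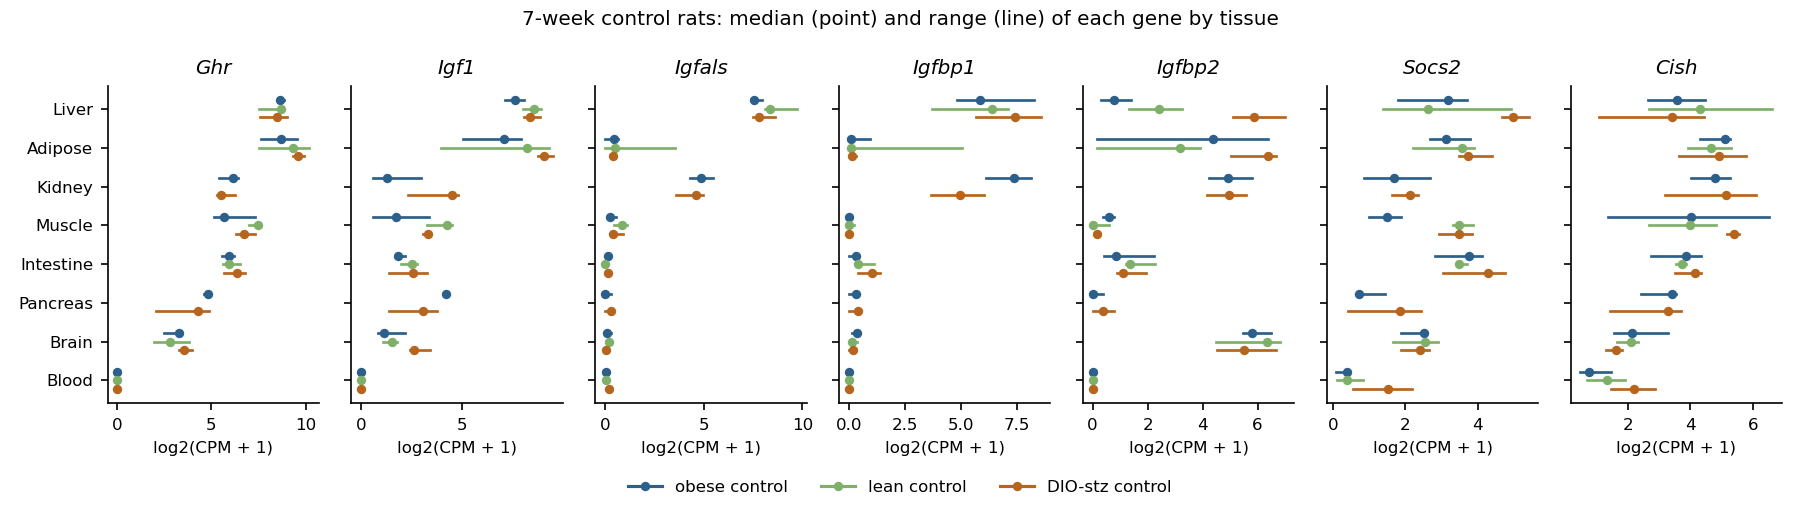
Median (point) and range (line) of each gene by tissue as log2(CPM + 1) in the 7-week control rats, blue for obese, green for lean and orange for DIO-stz controls. Igfals is high in liver and at 28.2 CPM in obese kidney, Igfbp1 is high in kidney and liver, and Igfbp2 is low in obese liver and high in brain.

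In the tissues other than liver few members passed. Obese against lean controls gave 23 tests in 5 tissues, of which 3 fell and 0 rose, all in muscle. Over all genes 52.6% were called in muscle (25.5% as lower), 3.16% in blood, 0.338% in brain, 0.0291% in adipose and 0.0136% in intestine. Socs2 had 1.412, 1.002, 2.131, 2.671 and 1.798 CPM in obese muscle and 10.0, 10.2, 8.999 and 13.52 CPM in lean muscle. The groups did not overlap, as held for 17.3% of genes, and Socs2 fell by 2.44 ± 0.36 (SE) on the log2 scale (edgeR adjusted p = 3.3e-05). Igf1 fell by 2.14 ± 0.51 (SE, edgeR adjusted p = 0.00206), from 8.408 to 21.38 CPM in lean to 0.4856 to 9.305 CPM in obese muscle, and Ghr by 0.89 ± 0.33 (SE, edgeR adjusted p = 0.0299), both on the log2 scale. The lean muscle libraries held 14130 to 32900 CPM of Rn7sl1 and the obese ones 2.261 to 17.97 CPM, so the kind of library and obesity cannot be told apart in muscle. The Ghr call was also lost with the groups compared alone (-0.96, edgeR adjusted p = 0.0778) and without any of animals 1, 2, 4, 13 or 14.

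For pFUS in obese rats 0 of 33 tests in 7 other tissues passed, where 0.119% of genes were called in muscle, 0.105% in kidney, 0.0616% in pancreas, 0.0612% in intestine and none in adipose, blood and brain. In lean rats 0 of 23 tests in 5 tissues passed, where 0.0068% of genes were called in intestine and none in the other 4. For the 3-day groups it was 0 of 20 in adipose and muscle, where 0.0216% and 0.0314% of genes were called for x1 and 0.0503% and 0.628% for x10. Kidney Igfbp1 came nearest: it had 280.8, 282.2, 109.9, 166.8 and 69.45 CPM in obese controls and 26.55, 57.31, 71.37, 50.52 and 32.4 CPM under pFUS. A single control lay inside the pFUS range, and the log2 difference of -1.83 ± 0.34 (SE) missed the threshold in edgeR (adjusted p = 0.0796) and passed with DESeq2 (adjusted p = 9.56e-05). Kidney and liver Igfbp1 of the obese rats both averaged lower under pFUS, in organs of the same animals, without a call in either.

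Intestinal Cish lay higher under pFUS in each of the 7-week comparisons without passing in edgeR. In obese rats it had 5.77, 18.92, 19.52, 13.52 and 13.6 CPM in controls and 13.01, 16.82, 28.88, 30.67 and 21.94 CPM under pFUS, a log2 difference of 0.90 ± 0.25 (SE, edgeR adjusted p = 0.0963, DESeq2 adjusted p = 0.0269). In lean rats it had 11.94, 12.21, 10.73, 12.47 and 13.63 CPM in controls and 22.09, 22.59 and 25.91 CPM under pFUS, without overlap, as for 2.14% of genes (1.01 ± 0.28, edgeR adjusted p = 0.416). In DIO-stz rats the controls reached 19.36 CPM and the pFUS rats began at 19.4 CPM, and 0.721% of genes were higher without overlap (1.05 ± 0.24, edgeR adjusted p = 0.927). The log2 differences ran from 0.90 to 1.05 in 3 comparisons that share no animals. Intestinal Cish was singled out from all member tests in the other tissues after seeing them. The share of all genes that go alike in these comparisons was not taken. In other tissues Cish went both ways under pFUS.

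For pFUS in DIO-stz rats 1 of 34 tests in 7 other tissues passed. Over all genes 1.0% were called in pancreas, 0.159% in kidney, 0.0464% in adipose, 0.0277% in blood and none in brain, intestine and muscle. Adipose Cish had 43.78 and 53.8 CPM in the control females, 15.22 and 11.41 CPM in the control males and 93.15, 133.2 and 103.9 CPM in the pFUS males. The pFUS males were above all controls, and Cish rose by a log2 difference of 3.07 ± 0.26 (SE, edgeR adjusted p = 0.0288), where 0.0265% of genes were called higher. The call was lost without the sex term (1.94, edgeR adjusted p = 0.232) and without any 1 of the 4 controls (edgeR adjusted p from 0.0511 to 0.186). Muscle Cish went the other way, with 34.75, 42.76, 39.9 and 45.85 CPM in controls and 8.427, 11.68, 8.851 and 15.41 CPM under pFUS. These groups did not overlap, as held for 6.42% of genes, and the log2 difference of -1.78 ± 0.35 (SE) did not pass in edgeR (adjusted p = 0.135) and passed with DESeq2 (adjusted p = 0.000626). By sex, Cish was called higher in females of the DIO cohort in adipose (log2 difference 1.76 ± 0.26, edgeR adjusted p = 0.0288, where 0.603% of genes were called higher) and in kidney (2.01 ± 0.40, edgeR adjusted p = 0.0428, where 0.635% were). No DIO-stz pFUS female had an adipose library, so the adipose sex term rests on 2 female and 2 male controls. In kidney female 11 had 212.9 CPM, and pFUS males reached 72.59 CPM, above the control females at 68.31 and 50.28 CPM. How far these calls hold under the alternatives was not examined.

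Adipose values of the 7-week ZDF cohort need a caution. Of its 16 adipose libraries, 10 carried high muscle, kidney or brown fat transcripts (Ckm, Umod or Ucp1). Igf1 in lean control adipose was 57.42, 14.36, 609.3 and 528.5 CPM and Ghr 196.8, 181.4, 1096.0 and 1174.0 CPM, low in the same 2 rats. Without the 10 libraries obese adipose had lower Igf1 (log2 difference -1.30, edgeR adjusted p = 8.86e-06) and Ghr (-0.72, edgeR adjusted p = 0.00417) than lean adipose and higher Cish (0.81, edgeR adjusted p = 0.0173), on 2 controls a side, and obese pFUS adipose had lower Cish than its controls (-1.93, edgeR adjusted p = 0.000178). With all 16 libraries no member was called in either comparison.

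The hormones that drive the axis could be read only in brain. Over 31 brain libraries Gh1, growth hormone itself, was at most 0.3854 CPM, Ghrh, its releasing hormone, at most 1.162 CPM and Prl at most 1.375 CPM. Sst, which encodes somatostatin, the inhibitor of growth hormone release, had 12.15 to 175.4 CPM with a median of 77.71. It was not called in any of 6 comparisons, with a log2 difference of -0.04 ± 0.33 (SE, edgeR adjusted p = 0.999) for obese against lean and 0.23 ± 0.33 (SE, edgeR adjusted p = 1.0) for pFUS in obese rats.

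For each member the genes of most like pattern over the 55 livers were ranked by Pearson's r of log2(CPM + 1) among 8183 genes, as a description only, since the points share libraries, cohorts and depth. The ranking pools cohorts that differ in RNAs without a poly(A) tail, so an r over all livers also takes in differences between cohorts. Ghr was nearest to Atp11b (r = 0.917), Secisbp2l (0.917) and Dpp4 (0.915), whose r with Ghr was 0.615, 0.478 and 0.52 in the 3-day and 4-week livers. Igfals was nearest to Jmjd8 (0.922), Scamp4 (0.921) and Stub1 (0.919), whose r with Igfals was 0.311, 0.339 and 0.446 in those livers. Ghr and Igfals had r = -0.741 over all livers, -0.831 in the 7-week ZDF livers, -0.595 in the DIO cohort and 0.144 in the 3-day and 4-week livers. In the 7-week ZDF livers animal 15 was lowest of the controls in Ghr and highest in Igfals. Igfbp1 was nearest to Depp1 (0.764), Irs2 (0.688) and Irf2bp2 (0.656), and the r with Irs2 within the 3 cohorts was 0.557, 0.9 and 0.669. Cish was nearest to Foxa2 (0.802), a liver transcription factor, with 0.812, 0.902 and 0.877 within the cohorts, then Hhex (0.777) and Rtp3 (0.707).

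Igfbp2 was nearest to Arhgap8 (0.851), Dnajc12 (0.836) and Car5a (0.81). Igf1 was nearest to Sec62 (0.651), Hdac2 (0.618) and Bmp5 (0.616), and Socs2 to Zmiz2 (0.69), Ube2r2 (0.669) and Slc1a4 (0.664), of which Zmiz2 fell to 0.113 within the 7-week ZDF livers. Ghr and Igf1 had r = 0.019 over the 55 livers, -0.232 in the 7-week ZDF livers, 0.687 in the 3-day and 4-week livers and 0.024 in the DIO cohort. Socs2 and Cish had r = 0.501 over all livers, 0.672 in the 7-week ZDF livers, 0.306 in the 3-day and 4-week livers and 0.002 in the DIO cohort.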

How the data were processed

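Per the submitters' processing notes, reads were aligned with STAR 2.5.3a to Rnor_6.0 and quantified with RSEM. The authors deposited expected counts per gene and per transcript, already whole numbers. An annotation release was not given in the sources used here. Per the labels' protocols, libraries were stranded mRNA, or stranded total RNA for pancreas and adipose. Of 32623 genes 7769 had no count in any library.

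From these counts, edgeR 4.0.16 (R 4.3.3) was fitted per tissue and cohort on all groups: filterByExpr with a minimum count of 10, TMM factors, robust quasi-likelihood, a sex term in the DIO cohort, and Benjamini-Hochberg adjustment over all genes tested, called at 0.05. Standard errors are the log2 fold change over the root of F. CPM are counts per 1000000 of the library's total, and log2 levels add a pseudocount of 1. A replicate number is the same animal in every tissue. The 7 members and the gene lists were chosen with earlier results of these data known. Named genes were the members, genes of the wider list past the threshold in a liver comparison with a group mean of at least 1 CPM (at most 4 per role and direction), brain Gh1, Ghrh, Sst and Prl, and the 3 genes of most like pattern with a mean of at least 5 CPM. Pappa, Cyp2a2, Cyp3a2 and Obp3 of the list were not found by symbol. Promoters are RefSeq windows of GRCr8, a later assembly than that of the counts. Mixed adipose libraries were those above 5000 CPM of Ckm, 100 CPM of Umod or 500 CPM of Ucp1.

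The alternatives were DESeq2 1.42.0, its size factors in edgeR, no low-count filter, the compared groups alone, leaving out each animal, males only, no sex term, only the DIO-stz groups, adipose without mixed libraries and TMM over all libraries. Lean control 15 and obese pFUS animal 7, which earlier work found far from their groups in liver, were also left out together. A dispersion trend with the older quasi-likelihood method was added after seeing the data. Scripts were tested on simulated counts: of 2-fold and 4-fold changes in liver, 53% and 94% were recovered for obese against lean, 46% and 91% for pFUS in obese rats, and 7% and 60% for pFUS in DIO-stz rats.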

Additional observations from a re-analysis of the deposited data

Results flagged for a closer look

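Of 91 sets of 1 member in 1 group of 4 or 5 animals, 84 of them in liver, 11 held an animal far from the others, all in liver. A rate of about 1 set in 20 by chance holds for independent sets of normally spread values. These sets share animals and their CPM were often spread toward high values, so the 11 were not set against that rate. Lean control 15 accounted for 2 of them, with Ghr at 182.5 CPM against a group median of 408.9 and Igfals at 847.2 CPM against 328.4. Igfbp1 stood out in lean pFUS animal 16 (261.2 CPM, median 11.65) and in DIO-stz pFUS animal 7 (234.9 CPM, median 44.31). Igfbp2 stood out in DIO-stz pFUS animal 11, the only female of its group (17.34 CPM, median 1.263), and in 3-day control 41 (1.913 CPM, median 0.08006). The feedback genes gave the other 5. In 3-day control 43 both Socs2 (10.84 CPM, median 2.748) and Cish (17.04 CPM, median 1.299) were high. In the 4-week groups Socs2 was high in AM & PM x10 animal 32 (6.047 CPM, median 2.911) and AM & PM x1 animal 22 (12.93 CPM, median 4.086), and Cish in AM only x10 animal 28 (10.84 CPM, median 4.542).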

How the results depend on the processing

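Of 1626 alternatives to 67 results for single members, 1513 kept direction and side of the threshold, 28 lost the call, 19 gained one and 66 changed sign; of 499 alternatives to 20 counts, 448 stayed within 1.5 times. Where a value changed, the cause was not tested. No paired analysis was possible because the groups compared share no animal numbers. DESeq2 results without an adjusted p were left out. The depth limits Igfbp2, Socs2 and Cish most, which stood near 1 CPM in many livers.

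The count of called genes of the wider list in obese against lean liver was 5 with no filter, with only the groups compared and without lean control 15 and obese pFUS animal 7 (below, animals 15 and 7), against 8, and 4 to 8 leaving out each animal; for pFUS in obese liver it was 0 under the same 3 alternatives, against 1, and 0 to 1; for sex it was 5 to 8. The count of members called was, for pFUS in obese liver, 1 with DESeq2, 2 with only the groups compared and 0 to 1 leaving out each animal, against 0; for pFUS in lean liver, 2 without animals 15 and 7 and 0 to 2; for the difference of both, 1 without animals 15 and 7 and 0 to 1; for 3-day x1, 1 with DESeq2; for AM & PM x10 against AM only x10, 1 with only the groups compared and 0 to 1. For pFUS in DIO-stz liver it was 2 with DESeq2, and 0 with males only and with no sex term, against 1; for sex 0 with the older quasi-likelihood method, no filter and only the DIO-stz groups, and 0 to 1. In other tissues it was 6 without mixed adipose for obese against lean, against 3; 2 with DESeq2 and 1 without mixed adipose for pFUS in obese rats; 1 with DESeq2 for the 3-day groups; and 4 with DESeq2, 0 with no sex term and 0 to 1 leaving out each animal for pFUS in DIO-stz rats, against 1. With TMM factors over all libraries the median of obese control liver was 476.9 CPM for Ghr, 244.8 for Igf1 and 264.2 for Igfals.

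Some log2 differences changed sign. For pFUS in lean liver, Igf1 was -0.012 with no filter and -0.024 without animals 15 and 7, and Igfbp1 was 0.018 with DESeq2, 0.015 with DESeq2's size factors in edgeR, 0.007 with only the groups compared and 0.10 without animals 15 and 7. For the difference of the pFUS effects, Igf1 was 0.042 with no filter and 0.081 without animals 15 and 7, and Igfals -0.64 without them. Leaving out each animal gave, for pFUS in lean liver, -1.34 to 0.27 for Cish, -0.06 to 0.14 for Igf1, -0.022 to 0.766 for Igfals, -2.06 to 0.30 for Igfbp1, -0.16 to 0.87 for Igfbp2 and -0.44 to 0.53 for Socs2. It gave -0.083 to 0.109 for Igf1 under pFUS in obese liver, and -0.14 to 0.09 for Igf1 and -0.56 to 0.23 for Igfals in the difference of both effects. For 3-day x1 it gave -1.16 to 1.63 for Cish, -0.17 to 0.10 for Igfals, -0.52 to 3.83 for Igfbp2 and -0.81 to 0.50 for Socs2, and for x10 -0.78 to 1.87 for Cish. It gave -0.80 to 0.16 for Socs2 in obese against lean liver, -0.12 to 1.31 for Igfbp1 by sex, and for adipose Cish -0.15 to 0.87 in obese against lean and -1.28 to 0.28 under pFUS in obese rats.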

Other observations

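The deposited transcript counts show how the 2 genes with more than 1 transcript were read in liver. For Igf1, ENSRNOT00000038780 took a median of 67.1% of the gene's counts in obese controls and 71.4% in lean controls of the 7-week cohort, 82.9% in 3-day controls and 73.3% in DIO-stz controls. In lean control muscle it took 92.7% and in obese control adipose 92.9%. For Ghr, with 4 transcripts, ENSRNOT00000046951 took 59.2%, 53.1%, 62.7% and 52.1% in the same 4 liver groups. These shares are RSEM estimates and were not tested. Igfals, Igfbp1, Igfbp2, Socs2 and Cish had 1 transcript each.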
